A study of Saccharomyces cerevisiae with 3 samples.

Results

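The 10 genes described here encode the reductive iron uptake system of Saccharomyces cerevisiae and an iron-sparing factor, and were taken by gene symbol from the array's platform annotation, as 10 of the 5203 genes that the named probes stand for. They are the ferric reductase genes FRE2, FRE3, FRE5 and FRE6, the transport genes FET3, FTR1 and FET4, the vacuolar genes FET5 and FTH1, and TIS11. Each had 1 probe. PolyA RNA of strain S288C, grown at 25 C in YPD, a rich glucose medium, and exposed in exponential growth to 1.5 uM fluazinam for 2 h, was labelled with Cy5. It was hybridised on 3 two-colour arrays with Cy3-labelled RNA of cells of the same strain grown for 2 h with no addition, and the series describes the 3 as independent biological samples. Fluazinam is a fungicide known as an uncoupler of oxidative phosphorylation.

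Yeast takes up iron from its surroundings by first reducing ferric iron at the cell surface. The ferrous iron is then oxidised and imported by a complex of a multicopper oxidase and a permease, and a related oxidase and permease pair moves stored iron out of the vacuole. When iron is scarce, the transcription factors Aft1 and Aft2 activate these genes together with genes for the capture of siderophores, the iron chelators that microbes secrete. They also activate TIS11, whose product marks transcripts of iron-using proteins for decay.

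Every value below is a log2 ratio of treated over untreated cells, so 1 stands for a doubling. The base of the log and the direction were not stated and were assumed from the value range and the channel order. With the opposite direction every sign would turn. No dyes were swapped, so dye and treatment effects on a gene cannot be told apart. Values were present for 4463 to 5245 of 6272 probes per array, and the arrays correlated at 0.434 to 0.629 across 3802 features (genes or unnamed probes) with a value on all 3. The number of arrays limits the precision.

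None of the 8 genes with a value on every array passed the test over all features. The limma test with Benjamini-Hochberg adjustment and a threshold of 0.05 placed 299 of 3802 features past it, or 7.86%, with 3.39% higher and 4.47% lower in treated cells. FRE3 came nearest, at a mean of 1.17, and had the smallest adjusted p of the 8, 0.0718. It was also the only one with an unadjusted p under 0.05, where 29.7% of all features had one. Features past the threshold had mean changes of at least 1.07, a size that among the 8 only FRE3 reached. The 95% intervals of the 8 means extended from 0.60 to 1.01 on each side, so changes smaller than that could not be resolved by these arrays.

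The 8 means nevertheless lay mostly above 0. A mean above 0 was found for 7 of the 8 genes, where 49.8% of all features had one, and their median was 0.50 against -0.0049 over all features. Values above 0 on all 3 arrays were found for 2 of the 8, FRE3 and FET4, or a share near the 25.2% of all features. By the median, the genes also varied more from array to array than features in general: the median SD over the 3 arrays was 0.73 for the 8 genes and 0.46 for all features. It was 0.79 both for other Aft regulon genes and for genes of iron-dependent proteins, so a wide spread was not a trait of the 8 genes alone.

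**Figure D1:**
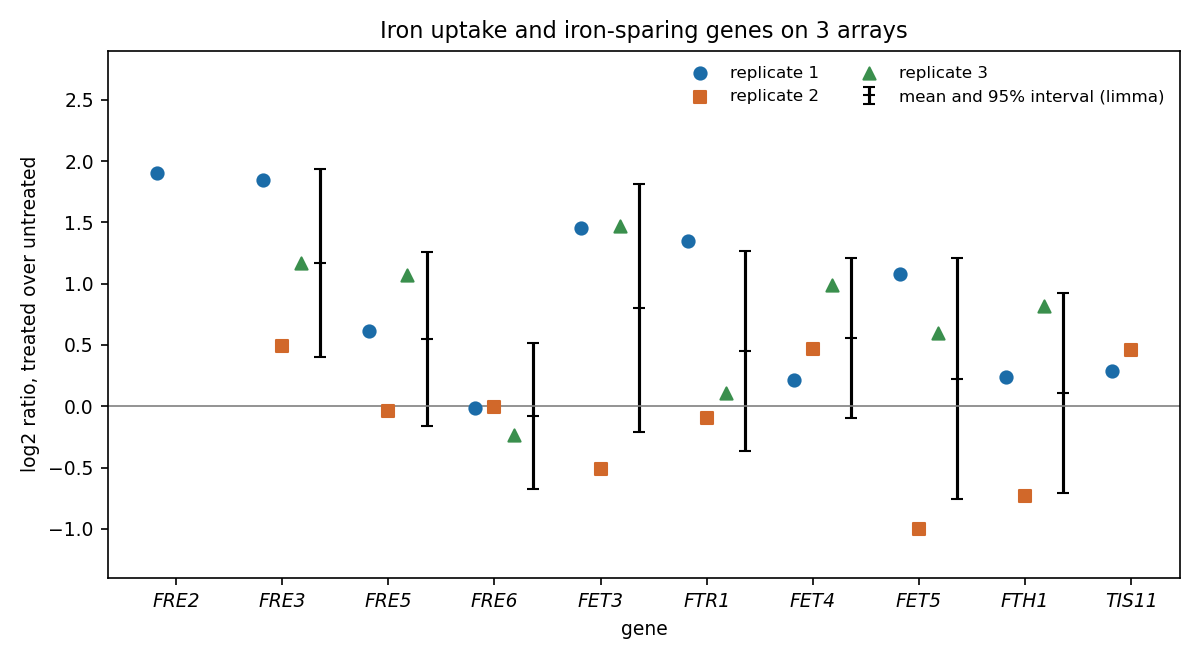
Log2 ratio of treated over untreated cells (vertical axis) for each gene (horizontal axis), with 1 point per array and, for the 8 genes with a value on all 3 arrays, the mean with its 95% limma interval in black. Among the 8 intervals, that of FRE3 is the only one that leaves out 0, and replicate 2 is the lowest point for 6 of the 8 genes.

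FRE2 and FRE3 encode reductases of the plasma membrane. FRE2, a ferric reductase, had a value on replicate 1 only, 1.91, which was above 97.2% of the features on that array. FRE3, which acts on siderophore-bound iron, had log2 ratios of 1.84, 0.49 and 1.17 on replicates 1 to 3. All 3 lay above 0, and the array with the lowest value was replicate 2. The mean was 1.17 ± 0.68 (SD, n = 3), or 2.24-fold, with a 95% interval of 0.40 to 1.93 (limma adjusted p = 0.0718). On its 3 arrays FRE3 lay above 96.7%, 78.4% and 92.4% of features.

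FRE5 and FRE6 are less studied members of the same reductase family, and FRE6 is known from the vacuole membrane. FRE5 had log2 ratios of 0.62, -0.04 and 1.07, with a mean of 0.55 ± 0.55 (SD, n = 3; limma adjusted p = 0.270). Replicate 2 was at about 0 and the other arrays were higher. FRE6 had log2 ratios of -0.01, -0.0032 and -0.23, which made it the gene with the lowest mean and the smallest spread of the 8, at -0.08 ± 0.13 (SD, n = 3; limma adjusted p = 0.855). Its 95% interval ran from -0.68 to 0.51. Whether related FRE transcripts share signal on a probe cannot be seen here, because probe sequences were not used.

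FET3 and FTR1 encode the partners of high-affinity uptake, the multicopper oxidase and the iron permease, which reach the cell surface only as a complex. FET3 had log2 ratios of 1.45, -0.51 and 1.47 on replicates 1 to 3. Replicates 1 and 3 nearly coincided, above 94.5% and 95.9% of features, and replicate 2 lay on the other side of 0, above 23.0% of features. The mean was 0.80 ± 1.14 (SD, n = 3), with a 95% interval of -0.21 to 1.81 (limma adjusted p = 0.256). FTR1 had log2 ratios of 1.35, -0.10 and 0.11, high on replicate 1 alone, with a mean of 0.45 ± 0.78 (SD, n = 3; limma adjusted p = 0.421). The difference of FET3 minus FTR1 was 0.11, -0.41 and 1.36 on the 3 arrays, so as deposited the partners were close on replicate 1 and apart on replicate 3.

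FET4 encodes the low-affinity transporter, which carries ferrous iron and other metals and needs no oxidase. Its log2 ratios were 0.21, 0.47 and 0.99, all above 0, with a mean of 0.56 ± 0.39 (SD, n = 3), or 1.47-fold, and a 95% interval of -0.10 to 1.21 (limma adjusted p = 0.232). Unlike most of the other genes it was not lowest on replicate 2.

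FET5 and FTH1 encode the oxidase and permease of the vacuole membrane, counterparts of Fet3 and Ftr1. FET5 had log2 ratios of 1.08, -1.003 and 0.60, the widest range of the 8, and a mean of 0.22 ± 1.09 (SD, n = 3; limma adjusted p = 0.752). On replicate 2 it lay above only 7.92% of features. FTH1 had log2 ratios of 0.24, -0.73 and 0.82 and a mean of 0.11 ± 0.78 (SD, n = 3; limma adjusted p = 0.859). Both were above 0 on replicates 1 and 3 and below 0 on replicate 2. FET3 exceeded its vacuolar counterpart FET5 on all 3 arrays, by 0.37, 0.49 and 0.87, while FTR1 exceeded FTH1 on replicates 1 and 2, by 1.11 and 0.63, and not on replicate 3, where the difference was -0.71. These are differences of values as deposited, and that of FTR1 and FTH1 changed sign on replicate 2 with a correction for array position, described below. With 3 arrays a two-sided exact permutation test of such a difference cannot go below p = 0.25.

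TIS11 (also CTH2) encodes the zinc finger protein that binds AU-rich elements and shortens the life of transcripts of iron-using proteins. It had log2 ratios of 0.28 and 0.46 on replicates 1 and 2, above 60.4% and 76.9% of features, and no value on replicate 3. When features with values on at least 2 arrays were tested, its mean was 0.37 ± 0.12 (SD, n = 2), with a 95% interval of -0.41 to 1.15 (limma adjusted p = 0.492).

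Ordered by mean log2 ratio, the 8 genes ran from FRE3 through FET3, FET4, FRE5, FTR1, FET5 and FTH1 to FRE6. In all 7 pairs of neighbours in this order the mean difference, 0.01 to 0.36, was smaller than its own SD over the arrays, so neighbours could not be ranked. The ends of the order were further apart: FRE3 exceeded FRE6 by 1.85, 0.49 and 1.40 on the 3 arrays (mean 1.25 ± 0.69, SD, n = 3; exact permutation p = 0.25, two-sided, the smallest 3 arrays allow, for a pair picked as the extremes).

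Replicate 2 stood apart for most of the genes. It gave the lowest of the 3 values for 6 of the 8 genes, FET4 and FRE6 being the others, where it was the lowest for 36% of all features. It was also the lowest for 9 of 17 other Aft regulon genes, 3 of 6 iron regulators and all 4 measured relatives of the reductase family. For copper supply genes it was the lowest for 3 of 7, and for other metal transporter genes for 5 of 11. The share was below that of all features for iron-dependent protein genes, 4 of 31, and iron-sulfur cluster assembly genes, 2 of 15. The median over the 8 genes was 0.85 on replicate 1, -0.07 on replicate 2 and 0.90 on replicate 3. Without replicate 2, FRE3 (1.50 ± 0.48, SD, n = 2; limma adjusted p = 0.00940) and FET3 (1.46 ± 0.01; adjusted p = 0.0103) passed the test, the other 6 did not, and 17.3% of all features did. Replicate 2 held the lowest value of both genes, so leaving it out is not a fair test of them. Without replicate 1 or replicate 3 none of the 8 passed, where 11 and 0 of all 3802 features did. FET3 then had a mean of 0.48 without replicate 1 and 0.47 without replicate 3. FTR1, whose mean was 0.45 with all arrays, was at 0.0048 without replicate 1 and 0.73 without replicate 2, so its mean rested on replicate 1. FRE5 was at 0.29 without replicate 3 and 0.84 without replicate 2. FET4 was at 0.34 without replicate 3. Over all probes the SD of the values was 1.01, 0.80 and 0.90 on replicates 1 to 3, so replicate 2 had the narrowest spread. What set replicate 2 apart was not tested.

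**Figure D2:**
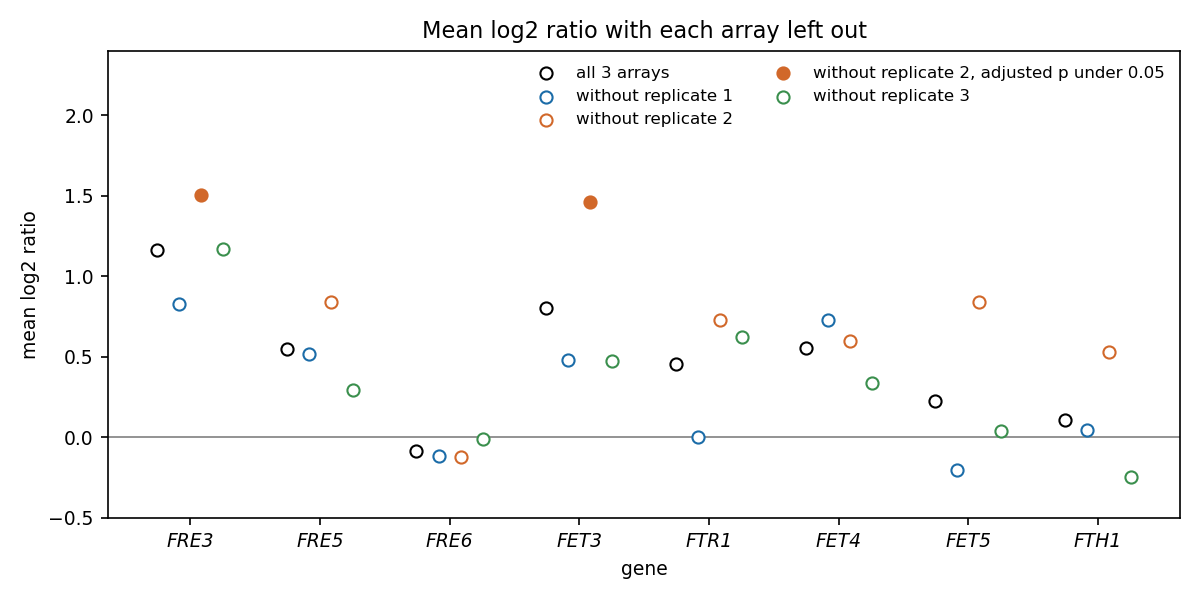
Mean log2 ratio (vertical axis) of the 8 genes measured on every array (horizontal axis), with all 3 arrays and with each array left out. Filled points mark an adjusted p under 0.05. Only FRE3 (1.50) and FET3 (1.46) reach it, both without replicate 2, which held the lowest value of each.

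Position on the array moved with several of these values. The probe numbers appear to give 32 printed sub-grids, a layout that was inferred and not stated, and the sub-grid medians ran from -0.91 to 0.57 on replicate 1, from -0.87 to 0.31 on replicate 2 and from -0.78 to 0.55 on replicate 3. FRE2, FRE3 and FTR1 lay in 1 sub-grid, whose median was 0.43 on replicate 1, 0.10 on replicate 2 and 0.03 on replicate 3. After each sub-grid's median was subtracted, FRE2 on replicate 1 was at 1.47 and FRE3 was at 1.41, 0.39 and 1.14 (mean 0.98 ± 0.53, SD, n = 3; limma adjusted p = 0.0628). FTR1 was then at 0.91, -0.19 and 0.08, with a mean of 0.27 in place of 0.45.

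TIS11 moved the most. Its sub-grid had the lowest median of all on replicates 1 and 2, at -0.91 and -0.87, and 0.12 on replicate 3. Relative to that sub-grid TIS11 was at 1.20 and 1.32, above 92.9% and 95.5% of features treated the same way, and its mean was 1.26 ± 0.09 (SD, n = 2; 95% interval 0.58 to 1.95; limma adjusted p = 0.0528). The part of the low sub-grid median in these values was not tested, so 0.37 and 1.26 stand side by side as values for TIS11.

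FET5 and FRE6 shared another sub-grid, with medians of -0.29, -0.20 and -0.67. FRE6 changed sign with the correction, to 0.30 ± 0.12 (SD, n = 3; limma adjusted p = 0.385), and FET5 was at 1.37, -0.80 and 1.27. FRE5, in a sub-grid with a median of 0.55 on replicate 3, was at 0.36, -0.14 and 0.51 after the correction, with a mean of 0.24 in place of 0.55. FTH1 moved the other way, to 0.60, -0.10 and 0.66, with a mean of 0.39 in place of 0.11. FTR1, at 0.91, -0.19 and 0.08 after the correction, then exceeded FTH1 on replicate 1 only. FET3 was then at 1.69, -0.34 and 1.62 (mean 0.99), still above FET5 on all 3 arrays and no longer close to FTR1 on replicate 1. FET4 was at a mean of 0.42. With the correction and without replicate 2, FRE3 (1.27; limma adjusted p = 0.0195), FET3 (1.66; 0.00813) and FET5 (1.32; 0.0168) passed, where 18.9% of all features did. That setting was chosen after the data were seen. It left out the array with the lowest value of each of these genes, so it is not a fair test of them. With the correction and all 3 arrays, none of the 8 passed.

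**Figure D3:**
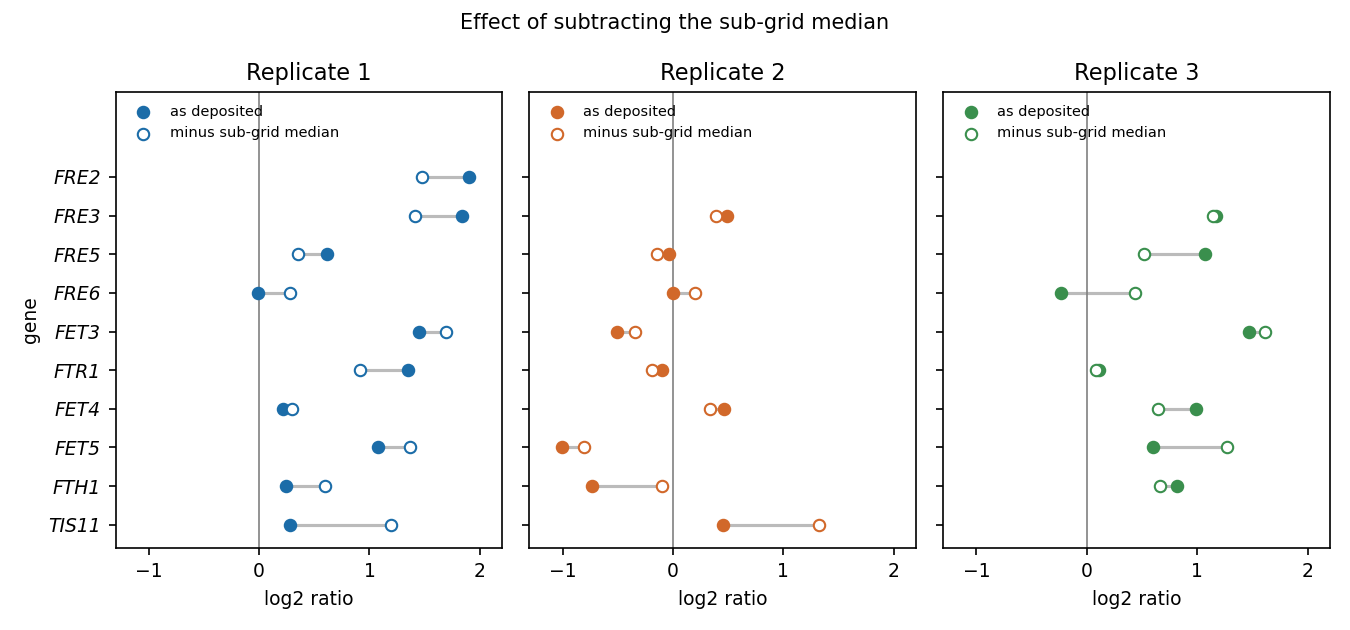
Log2 ratio (horizontal axis) of each gene (vertical axis) on the 3 arrays, as deposited (filled) and after subtraction of the median of its inferred sub-grid (open). The values of TIS11 go from 0.28 to 1.20 on replicate 1 and from 0.46 to 1.32 on replicate 2.

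The other genes that Aft1 and Aft2 activate had a higher median than the reductive uptake genes. Of 17 other Aft regulon genes with values on every array, 5 rose, 1 fell and 11 did not pass, and their median was 1.24. Over all features, 3.39% rose and 4.47% fell. By array the medians were 1.40, 0.70 and 1.27. FIT2 (3.74 ± 0.82, SD, n = 3) and FIT3 (2.06 ± 1.06), cell wall mannoproteins that retain siderophore-bound iron, rose, as did ENB1 (2.10 ± 0.95), a siderophore transporter, and VHT1 (1.54 ± 0.82), the biotin transporter. Values above 0 on all 3 arrays were found for 14 of the 17, and for 25.2% of all features. Without replicate 1 the count past the threshold was 1 and without replicate 3 it was 0, where 11 and 0 of all 3802 features passed. Without moderation of the variance none of these genes passed, nor any gene of the lists that follow. Of all 3802 features, 1 then passed. The list was chosen with earlier results of these data known, and no test compared it with the 8 genes.

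**Figure D4:**
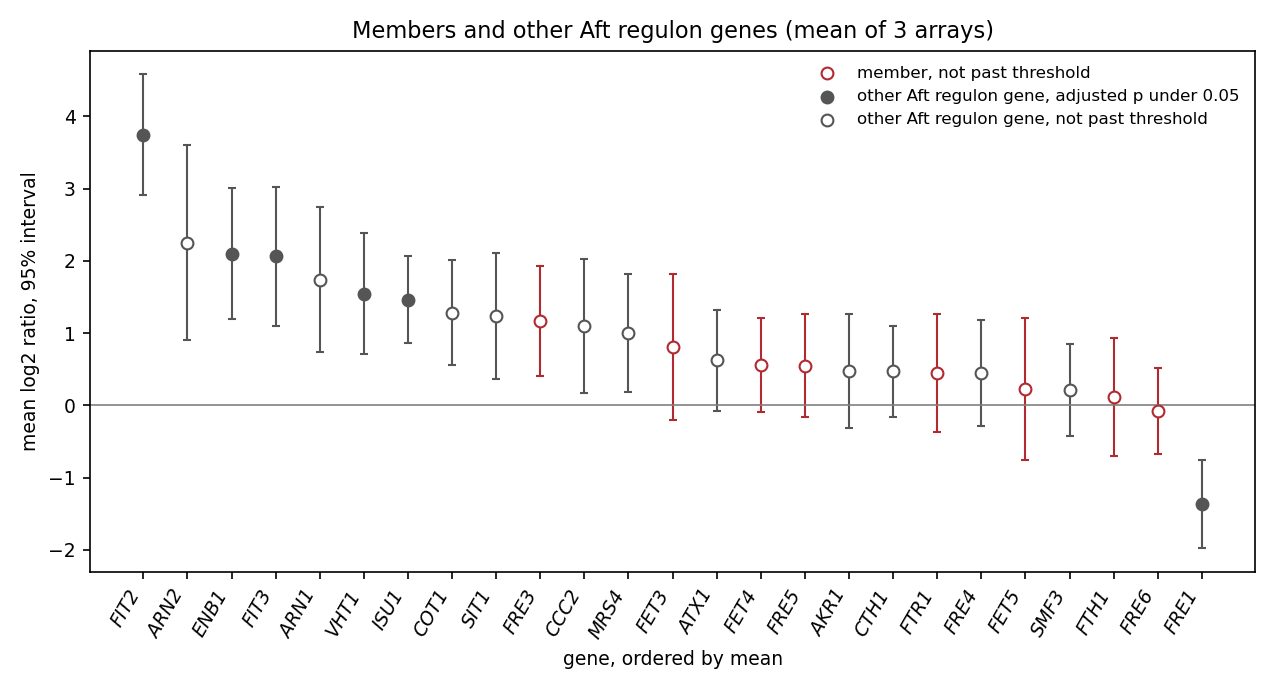
Mean log2 ratio with 95% limma interval (vertical axis) of the 8 reductive uptake genes (red) and 17 other Aft regulon genes (grey), ordered by mean; filled points passed the test. FIT2 at 3.74 and FRE1 at -1.37 are the ends, and FRE3 at 1.17 is the highest of the red points.

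Among the other genes of the reductase family, FRE1, the main surface reductase for ferric iron and copper, had ratios of the opposite sign to FRE3. FRE1 had log2 ratios of -1.44, -1.54 and -1.11, all below 0, and fell by 1.37 on the log2 scale (SD 0.22, n = 3; limma adjusted p = 0.0320). FRE1 was the only 1 of 4 measured relatives past the threshold, and their median was 0.10. The others did not all share its sign. FRE7 (1.15, 0.15 and 1.03) and FRE4 (0.20, 0.01 and 1.14) were above 0 on all 3 arrays, as FRE3 was. AIM14 had log2 ratios of -0.26, -0.49 and 0.02. Without replicate 1 or replicate 3 no relative passed, where 11 and 0 of all 3802 features did.

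Copper genes bear on the Fet3 oxidase, which needs copper to work. Of 7 copper supply genes measured, FRE1 alone passed, and the median was 0.62. Values above 0 on all 3 arrays were found for 5 of them, and for 25.2% of all features. Of 6 regulators of iron and metal response, FRA1, which takes part in the inhibition of Aft1 when iron is sufficient, rose (1.11 ± 0.14, SD, n = 3; limma adjusted p = 0.0447). It did not pass after sub-grid subtraction or with features on at least 2 arrays, nor without replicate 1 or replicate 3. Without these arrays in turn, 11 and 0 of all 3802 features passed. GRX4, of the same list, lay on the other side of 0, at -1.10, -0.27 and -1.69. Its mean was -1.02 ± 0.71 (SD, n = 3), and it did not pass (limma adjusted p = 0.0975). The median of the 6 was -0.04, with 2 means above 0 and 4 below.

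Genes for iron-dependent proteins, some of which are known targets of Tis11, lay mostly below 0. Of 31 measured, 2 fell, none rose and 29 did not pass. A mean below 0 was found for 25, or 80.6% where 50.2% of all features had one. The other 6 had a mean above 0, among them SDH4 (0.62) and ACO1 (0.55). CYC7 was the highest, at 0.80, 1.10 and 4.04 (mean 1.98, limma adjusted p = 0.0855). Whether Tis11 had a part in any of these values was not tested. YHB1, the flavohaemoglobin, had log2 ratios of -1.98, -2.72 and -1.41, and CYT1, cytochrome c1, had -2.92, -1.16 and -1.60; these were the 2 that fell. The median was -0.40 over the list and -0.85, -0.06 and -0.53 on the single arrays, so replicate 2 was the nearest to 0 here also. Without replicate 2, 12 passed, 1 of them upward, where 17.3% of all features did. Without replicate 1 or replicate 3 none of the list passed, where 11 and 0 of all 3802 features did.

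Iron-sulfur cluster assembly genes had a median of 0.23 over 15 measured. ISU1, the scaffold on which clusters are built and also an Aft target, rose (1.46 ± 0.17, SD, n = 3; limma adjusted p = 0.0277), with log2 ratios of 1.40, 1.65 and 1.33, and the other 14 did not pass. Of 11 other metal transporter genes, ZRC1, a vacuolar zinc transporter, fell (-1.74 ± 0.94, SD, n = 3; limma adjusted p = 0.0417), and the median was -0.06. ZRC1 did not pass with features on at least 2 arrays. Without replicate 1 or replicate 3 neither list had a gene past the threshold, where 11 and 0 of all 3802 features passed.

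The genes next to the 10 on the chromosome, as placed in assembly R64, included 8 with values on every array. FIT3, which lies beside FRE5, was the only neighbour to pass. Its log2 ratios of 2.87, 0.87 and 2.44 all exceeded those of FRE5, and both genes were lowest on replicate 2. MCH2, beside FRE2 and named after its values were seen, had log2 ratios of 2.33, 0.04 and 2.42 (mean 1.60 ± 1.35, SD, n = 3; limma adjusted p = 0.0847). COS9, on the other side of FRE2, had -1.24, -0.46 and 0.28 (mean -0.47 ± 0.76, SD, n = 3; limma adjusted p = 0.393), so on replicate 1, the array with a value for FRE2, its neighbours lay on opposite sides of 0. The median of the 8 neighbours was 0.15. Without replicate 1 or replicate 3 no neighbour passed, where 11 and 0 of all 3802 features did.

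The genes most like the uptake genes over the 3 arrays were found by Euclidean distance to the median profile of the 8, 0.85, -0.07 and 0.90, among 3566 other named genes. They were AFG3 (distance 0.05), which encodes a mitochondrial inner membrane protease, ASP3-4 (0.12), an asparaginase gene with near-identical copies, YDR061W (0.14), the isomaltase gene IMA5 (0.18) and OPY2 (0.19), a membrane anchor of signalling pathways. None of the 5 passed the limma test (adjusted p = 0.210 to 0.307). The copies of ASP3-4 did not all share its profile. ASP3-2 was close to it, at 0.69, 0.04 and 1.02, while ASP3-1 had 0.29, -0.70 and 0.55 and ASP3-3 had 0.17, -0.79 and 0.18. TIS11 lacked a value on replicate 3, so no profile was matched to it.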

How the data were processed

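The authors deposited 1 log2 ratio per probe and array, with base 2 and the direction (Cy5 over Cy3) assumed. Ratios were normalized by LOWESS over spots flagged 0, per the labels; the scanner, the background correction and why spots were flagged are not given in the sources used here. Probes were named through the platform annotation (5308 named, 964 unnamed), and probes of a gene were averaged. The 3802 features measured on every array were tested against 0 with limma 3.58.1 in R 4.3.3 (intercept only, moderated, 5.10 prior degrees of freedom, Benjamini-Hochberg adjustment, threshold 0.05), after a check on simulated data. With an array left out, the same features were tested. Sub-grids were read from probe numbers. The genes and lists were chosen with earlier results of these data known. Named are the 10 genes, up to 4 genes per list past the threshold or otherwise the largest, neighbours past it, and the nearest profiles. A few further genes, such as FRE7, GRX4 and CTR1, were named after their values were seen. Alternatives were other normalizations, filters and moderation. Sequences were not used here.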

Additional observations from a re-analysis of the deposited data

How the results depend on the processing

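The median of the 8 uptake genes stayed above 0 under every alternative (0.26 to 0.78). The count of these genes past the threshold was 1 after quantile normalization (FRE3, 1.14, limma adjusted p = 0.0497), where 415 of 3802 features passed. It was 0 to 2 over the arrays left out and 3 with sub-grid subtraction and replicate 2 left out (chosen after seeing the data). Otherwise it was 0. FRE6 turned to 0.30 with sub-grid subtraction, FET5 to -0.20 without replicate 1 and FTH1 to -0.25 without replicate 3; over the arrays left out FET5 reached 0.84 and FTH1 0.53. The cause was not tested. Features past the threshold numbered 299 of 3802. With replicates 1, 2 and 3 left out in turn they numbered 11, 657 and 0, so few or no features could pass without replicate 1 or 3. They numbered 333 with array median subtraction and 239 of 4979 with values on at least 2 arrays. The count was 1 without moderation and 718 with sub-grid subtraction and replicate 2 left out. With no moderation all 7 gene lists and the chromosomal neighbours had 0 past the threshold. Over the arrays left out, the counts were 0 to 10 for other Aft genes, 0 to 12 for iron-dependent proteins, 0 to 3 for metal transporters, 0 to 2 for copper supply, iron regulators, cluster assembly and neighbours, and 0 to 1 for other reductases. Other Aft genes reached 10 with sub-grid subtraction, where 391 of 3802 features passed. Iron regulators fell to 0 with it and with values on at least 2 arrays. Iron-dependent proteins reached 4 with a common median absolute deviation, quantile normalization or robust moderation, where 369, 415 and 399 features passed. Metal transporters were 2 with these 3, with array median or sub-grid subtraction, and 0 with values on at least 2 arrays. Each array paired treated with untreated RNA, so the test of the ratio against 0 was itself a paired one. The arrays form 1 group, so no other comparison was possible. Signal over background was unknown.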
